A study of Mus musculus with 13 samples.

Results

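The genes that encode the Wnt ligands, the Frizzled receptors and the secreted Wnt antagonists were followed as 1 group through H3K27me3 ChIP-seq of mouse embryonic stem cells (ESCs). Members were chosen by gene symbol. They were 19 Wnt ligand genes, 10 Frizzled genes, 11 genes of secreted antagonists or their relatives (Dkk, Dkkl1, Sfrp, Frzb, Wif1), 4 R-spondin genes and 5 genes that act inside the cell (Axin2, Lef1, Tcf7, Frat1, Frat2). These 49 genes had 75 promoter rows of the 77489 in the promoter table, each a window of 3001 bp that reaches 2000 bp upstream and 1000 bp downstream from an annotated start. They were overlapped by 67 of the 57909 regions in which H3K27me3 was called in either genotype. The series concerns SAFB, a nuclear protein that associates with nascent RNA. Its double knockout libraries (DKO, the labels' safb1/2 double ko) were set against WT libraries of the same CAST/B6 male line, which carries a Rosa26-RMCE cassette for exchange of transgenes on chromosome 6. For H3K27me3 there were 4 DKO and 5 WT libraries, and for total H3 there were 2 DKO and 2 WT libraries. All cells, DKO and WT, had been given doxycycline for 3 days and were fixed with 0.6% formaldehyde. Clone 4 gave DKO replicate 1 for H3K27me3, and clone 13 gave DKO replicates 2, 3 and 4 and both DKO libraries for total H3, so each knockout line is 1 clone. WT replicates 1, 4 and 5 share a library name stem that WT replicates 2 and 3 do not carry. The words Old (DKO replicate 3, WT replicate 4) and New (DKO replicate 4, WT replicate 5) stand in the names of 4 of the 9 H3K27me3 libraries, with no explanation in the labels. These 4 are called the marked libraries here and the other 5 the unmarked ones. The count columns carry the tag b6 in their names, which the labels do not explain, so the counts may be of both strains' alleles or of the B6 allele alone. The labels do not say whether replicates are separate cultures, and p-values therefore rest on the spread between libraries, which may be technical.

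Wnt ligands are secreted, lipid-modified glycoproteins that bind Frizzled receptors and LRP co-receptors on the cell surface, which stops the destruction of beta-catenin and lets it act with TCF and LEF factors on target genes. Dkk proteins bind the LRP co-receptors, Sfrp proteins and Wif1 bind the ligands themselves, and R-spondins raise the number of receptors at the surface. H3K27me3 is laid down by Polycomb repressive complex 2, and in ESCs it covers the promoters of many developmental regulators, where the gene is silent or poised. In bulk chromatin, fewer cells with the mark and less mark per cell cannot be told apart.

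Promoter sequences from RefSeq (build GRCm38.p6, 250 bases before to 50 after the start, 5′ to 3′ on the strand of the gene) were available for 35 of the 49 genes, with 42 promoters in all. A few are shown because the results turn on them. Frat1 and Frat2, which encode proteins that bind GSK3 and favour Wnt signalling, are a pair of genes on chromosome 19 that face each other with 18162 bp between their starts. Frat1 is at chr19:41829720-41830019 on the plus strand and Frat2 at chr19:41848083-41848382 on the minus strand. Capitals mark the longest run that the 2 promoters share, 63 bases long, which runs from 13 bases before the start to the end of the window in Frat1 and begins 17 bases before the start in Frat2.
Frat1: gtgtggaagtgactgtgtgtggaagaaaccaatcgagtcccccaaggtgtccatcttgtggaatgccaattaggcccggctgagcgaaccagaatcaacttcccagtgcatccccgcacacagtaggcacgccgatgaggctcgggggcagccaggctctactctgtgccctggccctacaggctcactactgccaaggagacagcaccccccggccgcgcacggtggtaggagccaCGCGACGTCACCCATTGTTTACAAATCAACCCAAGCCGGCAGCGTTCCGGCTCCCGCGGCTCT
Frat2: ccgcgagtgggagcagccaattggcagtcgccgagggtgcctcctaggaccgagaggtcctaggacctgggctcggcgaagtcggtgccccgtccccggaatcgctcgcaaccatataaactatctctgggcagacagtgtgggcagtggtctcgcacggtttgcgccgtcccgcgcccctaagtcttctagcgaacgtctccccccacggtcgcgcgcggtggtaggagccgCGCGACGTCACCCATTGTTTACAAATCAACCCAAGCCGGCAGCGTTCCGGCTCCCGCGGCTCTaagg
The next 4 promoters have their CpG dinucleotides in capitals. Fzd7 (chr1:59481897-59482196, plus strand) is the receptor whose promoter row was called higher in DKO in the main test. Its RefSeq start lies 277 bp upstream of the start used for that row. Wnt9b (chr11:103749772-103750071, minus strand) is the ligand whose promoter row was called higher in that test, on a chromosome whose rows as a whole were higher in DKO. Wnt1 (chr15:98789607-98789906, plus strand) lies in the longest of the 67 regions. Wnt8b (chr19:44493222-44493521, plus strand) is the member whose start lay in a region called in WT alone.
Fzd7: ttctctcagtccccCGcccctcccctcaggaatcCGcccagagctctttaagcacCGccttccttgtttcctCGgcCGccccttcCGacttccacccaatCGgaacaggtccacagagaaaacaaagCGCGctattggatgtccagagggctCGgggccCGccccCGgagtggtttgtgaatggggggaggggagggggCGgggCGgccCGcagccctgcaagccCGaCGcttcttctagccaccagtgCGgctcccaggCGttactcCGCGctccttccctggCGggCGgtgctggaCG
Wnt9b: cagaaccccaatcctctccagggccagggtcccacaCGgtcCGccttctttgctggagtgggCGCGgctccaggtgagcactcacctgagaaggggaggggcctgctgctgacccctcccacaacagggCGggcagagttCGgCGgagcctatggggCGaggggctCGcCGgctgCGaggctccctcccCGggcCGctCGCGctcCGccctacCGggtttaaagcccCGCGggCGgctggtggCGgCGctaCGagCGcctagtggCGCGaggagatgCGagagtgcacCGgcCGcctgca
Wnt1: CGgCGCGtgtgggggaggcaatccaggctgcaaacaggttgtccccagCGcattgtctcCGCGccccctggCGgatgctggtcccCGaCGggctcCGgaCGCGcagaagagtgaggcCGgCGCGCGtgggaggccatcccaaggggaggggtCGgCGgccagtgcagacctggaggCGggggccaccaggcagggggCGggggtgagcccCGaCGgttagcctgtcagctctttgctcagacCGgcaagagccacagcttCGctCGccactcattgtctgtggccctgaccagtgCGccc
Wnt8b: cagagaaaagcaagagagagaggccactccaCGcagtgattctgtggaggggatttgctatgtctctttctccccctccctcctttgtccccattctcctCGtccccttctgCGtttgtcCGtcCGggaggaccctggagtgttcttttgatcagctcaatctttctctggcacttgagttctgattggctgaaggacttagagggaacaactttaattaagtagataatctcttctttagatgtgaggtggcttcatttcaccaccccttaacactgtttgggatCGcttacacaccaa
In these 300 bases there were 24 CpG in Fzd7, 29 in Wnt9b and 26 in Wnt1, against 6 in Wnt8b. The Frat1 and Frat2 windows held 19 and 34. The median over the 42 member promoters was 24.5 CpG and 66.5% G or C, against 7 CpG and 52.7% over 32851 promoters of all genes. A ratio of observed to expected CpG of 0.6 or more was reached by 73.8% of the member promoters, against 36.1% of all promoters. The motif CTTTGAT, the core of a TCF/LEF site, was searched on both strands. It occurred in 2 of the 42 member promoters (4.76%), those of Wnt5b and Wnt11, against 3.73% of all promoters.

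Depth in an H3K27me3 library ran from 798466 to 1427771 counts over the promoter rows and from 1818647 to 3134799 over the regions. A total H3 library held 525847 to 736566 counts over the regions. Reads that overlapped more than 1 promoter row were not counted, so rows of neighbouring starts lose reads to each other. Among the 75 member rows, 14 had no base of their own and 18 held 0 counts in all 9 H3K27me3 libraries, which is a limit of the counting and not a level of 0. Levels are therefore given as CPM (counts scaled by library size and TMM) per kilobase of the bases a row does not share, for the 41 member rows of 38 genes with at least 1500 such bases. H3K27me3 counts do not show whether Safb or Safb2 is deleted, so the genotype labels were not checked from these data. The pluripotency genes Pou5f1 and Sox2 had no region at their start and stood at 1.52 and 2.71 CPM per kb in DKO and 1.65 and 2.76 CPM per kb in WT, while the rows of Nanog and Zfp42 shared nearly all their bases and could not be read. The other pluripotency markers listed stood higher. Tfcp2l1 was at 12.6 CPM per kb in DKO and 11.1 in WT and start 1 of Esrrb at 12.76 in DKO and 11.96 in WT, both outside a region, and starts 2 and 3 of Esrrb lay inside shared regions.

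H3K27me3 regions lay at nearly every member. At least 1 region overlapped the promoter rows of 48 of the 49 genes, against 21.5% of all 55232 genes. The exception was Dkk4, an antagonist of the LRP co-receptors. The start site itself, or at least 1 start where a gene has several, lay inside a region for 19 of 19 ligands, 10 of 11 antagonists, 4 of 4 R-spondins and 3 of 5 intracellular or nuclear members. For the Frizzled receptors it did so for 3 of 10, namely Fzd1, Fzd3 and Fzd6. Over all members that is 79.6% of genes, against 12.1% of all genes in the table. At the other 7 receptors the regions stopped short of the start given in the promoter table. The start of Fzd4, a receptor for the Norrin ligand in the retina, lay 310 bp from the region upstream and 71 bp from the region downstream. For Fzd8 these distances were 208 and 96 bp, for Fzd10 526 and 125 bp, and for Fzd2 1473 and 363 bp. At Fzd9 and Fzd5 there was a region on the downstream side alone, 142 and 767 bp away. These distances hold for the starts of the promoter table. The RefSeq starts of Fzd10 and Fzd9 lie 262 and 183 bp from those and inside the downstream regions, and those of Fzd4, Fzd5 and Fzd7 lie outside any region. Frat1 and Frat2 had the same form, with the downstream region 63 and 128 bp from the start. Start 1 of Axin2, which is its RefSeq start, also lay outside any region, and Axin2 is counted above through start 2. Of the 67 regions, 59 had been called by the authors in both genotypes, 7 in DKO alone and 1 in WT alone. The same lists hold 48.7% shared, 32.5% DKO-specific and 18.8% WT-specific among all regions. The 7 regions called in DKO alone lay at Fzd7 and Frat2 (2 each) and at Fzd5, Frat1 and Dkkl1 (1 each), and the WT-specific one, of 499 bp, lay over the start of Wnt8b. A region called in 1 genotype is lower in the other by that choice.

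**Figure D1:**
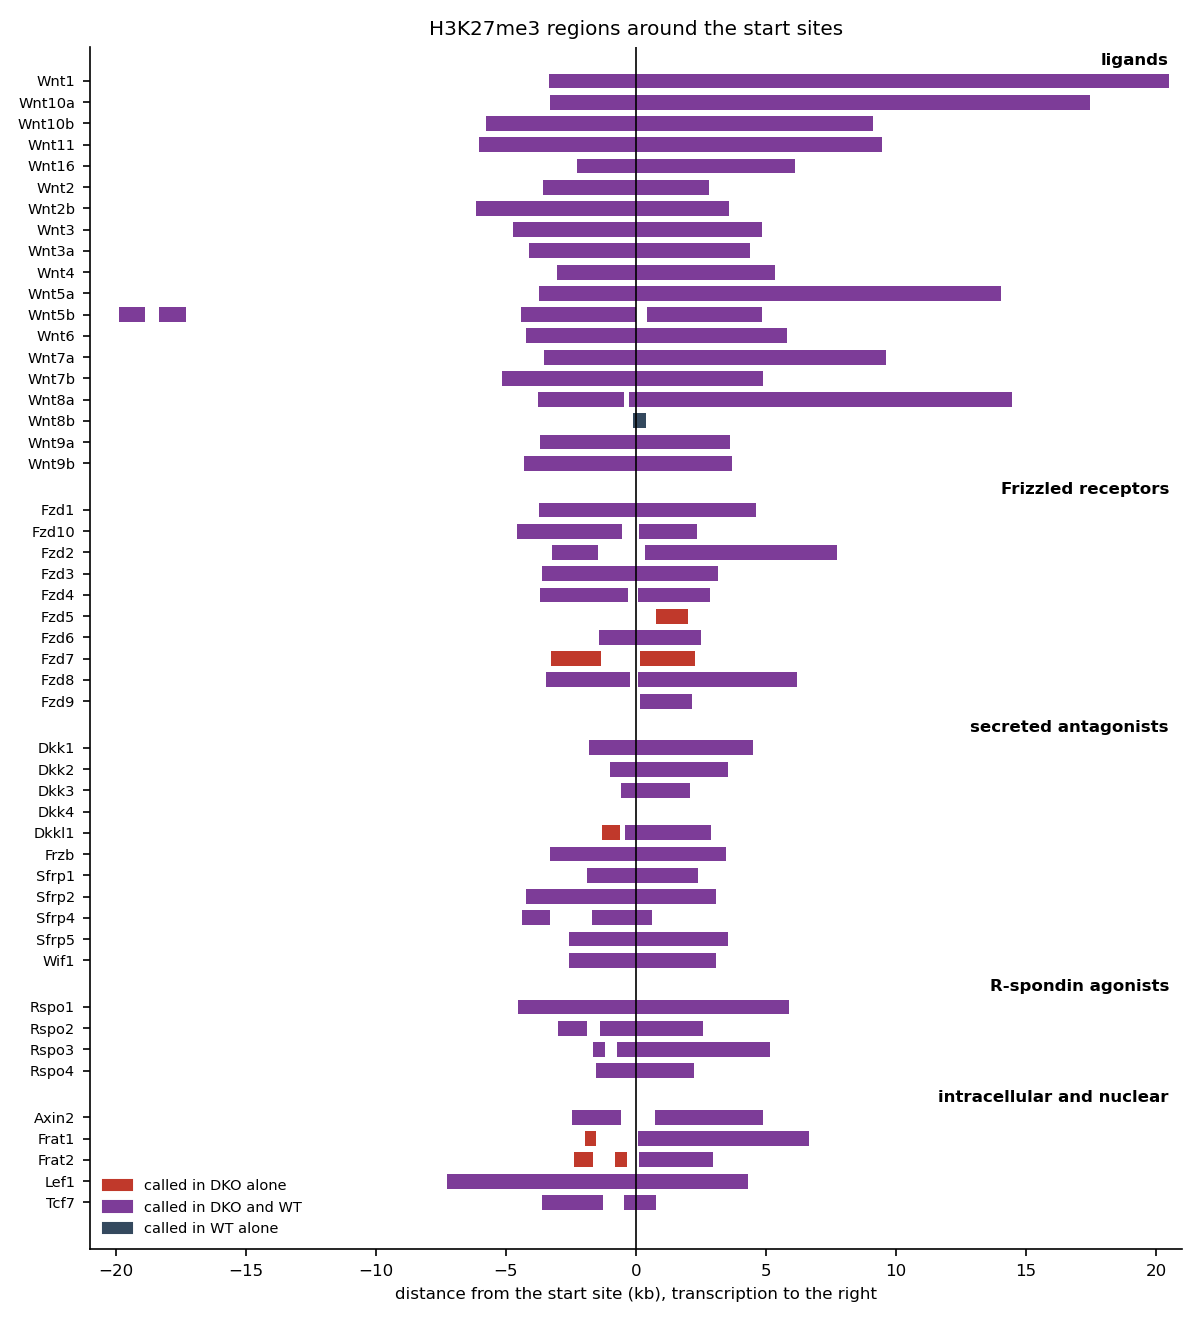
Regions of H3K27me3 around the start site of each member, drawn by distance from the start in kb with transcription to the right, and coloured by whether the authors called them in DKO alone, in DKO and WT, or in WT alone. The ligands' bars cross the start, while those of 7 of the 10 Frizzled genes, of Frat1 and Frat2 and of Axin2 at start 1 leave a gap at the start given in the promoter table.

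The ligand promoters carried the most H3K27me3. Their median level was 83.8 CPM per kb in DKO and 82.7 in WT over 17 rows, against 38.0 and 35.4 for 7 rows of Frizzled receptors and 42.6 and 44.1 for 9 rows of antagonists. The 3 R-spondin rows had medians of 33.9 in DKO and 34.2 in WT. For the 5 intracellular or nuclear rows the medians were 33.2 and 18.3, which are both the values of the single Frat1 row. Over all 42649 rows of the same kind the median was 4.41 in DKO and 4.59 in WT, and the median member row stood at percentile 97.6 of them. Over all 9 libraries the highest member was Wnt3a, a ligand of the primitive streak, at 148 in DKO and 141 in WT. It was followed by Wnt7b, a ligand of lung and placenta, at 128 in DKO and 149.7 in WT and Wnt6 at 125 in DKO and 136 in WT. None of these 3 promoter rows was called between DKO and WT, and their order was not tested. The lowest ligand was Wnt8b, a ligand of the developing forebrain, at 12.3 in DKO and 13.0 in WT, and the next above it was Wnt5b (start 3) at 17.4 in DKO and 17.1 in WT. Among receptors Fzd1, Fzd4 and Fzd3 were highest over all 9 libraries, at 43.8 in DKO and 46.1 in WT, at 39.8 in DKO and 43.1 in WT and at 38.0 in DKO and 38.5 in WT, and their spreads overlapped. Fzd8 came next at 41.7 in DKO and 35.4 in WT, and in DKO it stood above Fzd4 and Fzd3. Fzd7, a receptor known from pluripotent stem cells, was lowest at 15.0 in DKO and 7.72 in WT. Among antagonists the range ran down from Frzb, which binds Wnt ligands in cartilage, at 67.4 in DKO and 72.3 in WT, over Sfrp5 at 63.8 in DKO and 71.1 in WT and Dkk2 at 52.9 in DKO and 59.0 in WT, to Dkk4 at 6.37 in DKO and 5.55 in WT. The R-spondins ran from Rspo1 at 55.3 in DKO and 57.4 in WT, over Rspo4 at 33.9 in DKO and 34.2 in WT, to Rspo3 at 17.4 in DKO and 17.3 in WT. Of the intracellular or nuclear members, Axin2, a scaffold of the beta-catenin destruction complex and a Wnt target, was highest at start 2, at 74.0 in DKO and 62.2 in WT, and lowest at start 1, at 13.6 in DKO and 12.1 in WT, with Lef1 at 55.5 in DKO and 64.7 in WT between them. Over 28 member rows of 26 genes with a RefSeq promoter, the level had a Spearman rho of 0.41 with the G and C content and 0.18 with the CpG ratio. This is a description over rows that share the same 9 libraries.

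**Figure D2:**
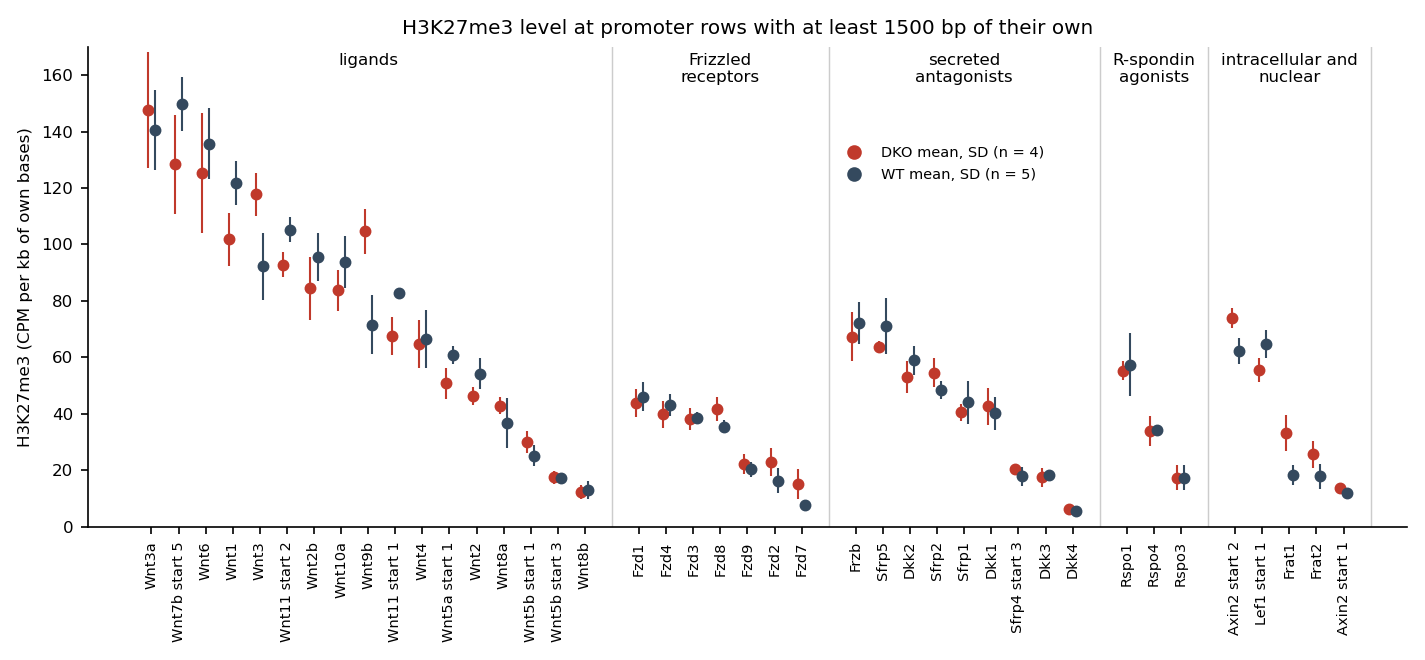
H3K27me3 level in CPM per kb of own bases at the 41 member rows with at least 1500 bp of their own, by role, as the mean and SD of the 4 DKO (red) and 5 WT (blue) libraries. Ligand rows reach 148 CPM per kb in DKO and 149.7 in WT, and the highest Frizzled row stays at 46.1 or lower in both genotypes.

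Between DKO and WT the mark rose at 3 member promoters and fell at none by the edgeR quasi-likelihood test over the whole table, with Benjamini-Hochberg adjustment at 0.05. The 3 were Frat1, Fzd7 and Wnt9b. Of the 75 rows, 47 rows of 42 genes had enough counts to be tested. Over all 32647 rows tested, 0.628% were called (0.438% rose, 0.19% fell). DESeq2 called 4 member rises and 0 falls, against 101 rises and 49 falls of the 10739 rows to which it gave an adjusted p. At an unadjusted p under 0.05 there were 14 of the 47 member rows, of which 6 were lower in DKO, against 10.2% of all rows tested. The median log2 fold change (DKO over WT) was -0.05 over member rows and -0.01 over all rows.

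Frat1 (chr19:41827970-41830970) had 101, 111, 115 and 71.7 CPM in the DKO libraries, against 44.8, 70.1, 61.1, 54.2 and 43.9 CPM in the WT libraries. Every DKO library lay above every WT library, with the Old and New libraries and the clone 4 library included. The means were 99.6 ± 19.5 CPM in DKO (SD, n = 4) and 54.8 ± 11.1 CPM in WT (SD, n = 5), a log2 fold change of 0.89 (SE 0.15, edgeR adjusted p of 5.32e-05). The log2 fold change was 0.87 among the unmarked and 0.95 among the marked libraries, and it passed in both. Its partner Frat2 (chr19:41847132-41850132) had 76.3, 86.2, 87.5 and 56.7 CPM in the DKO libraries, against 41.9, 59.1, 73.3, 51.0 and 41.6 CPM in the WT libraries. The highest WT library lay above the lowest DKO library, and the log2 fold change of 0.55 (SE 0.16, edgeR adjusted p of 0.0694) did not pass. Of 20 alternative settings 5 called Frat2, among them the fit with a term for the library sets Old, New and neither (0.56) and leaving out WT replicate 3 (0.68) or DKO replicate 4 (0.68). The sources used here do not give how reads matching both Frat promoters were placed. The shared run of 63 bases was searched in the 300 bases of each RefSeq promoter alone, and in Frat1 it reaches the end of that window. The rest of the 3001 bp of the 2 rows was not compared, so the full stretch they share is not known.

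Fzd7 (chr1:59480424-59483424) had 26.1, 58.6, 57.8 and 37.5 CPM in the DKO libraries, against 19.5, 27.5, 25.6, 27.9 and 15.4 CPM in the WT libraries. The clone 4 library, the first of the DKO values, lay within the WT range, and the 3 clone 13 libraries lay above it. The means were 45.0 ± 15.9 CPM in DKO (SD, n = 4) and 23.2 ± 5.49 CPM in WT (SD, n = 5), a log2 fold change of 0.99 (SE 0.20, edgeR adjusted p of 0.00184). Leaving out DKO replicate 2 or 3 ended the call, at 0.86 and 0.82. It was 0.81 among the unmarked libraries, which did not pass, and 1.17 among the marked ones, which passed.

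Wnt9b, a ligand that induces kidney tubules (chr11:103748821-103751821), had 288, 332, 299.9 and 336 CPM in the DKO libraries, against 261, 186, 227, 185 and 216 CPM in the WT libraries. Every DKO library lay above every WT library. The means were 314 ± 23.5 CPM in DKO (SD, n = 4) and 215 ± 31.8 CPM in WT (SD, n = 5), a log2 fold change of 0.55 (SE 0.11, edgeR adjusted p of 0.00106). Wnt9b lies on chromosome 11, whose promoter rows as a whole were higher in DKO, by a median of 0.29. When each library was corrected for its own chromosome 11 level, the value was 0.29 and did not pass. It was 0.45 among the unmarked libraries, which did not pass, and 0.68 among the marked ones, which passed.

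**Figure D3:**
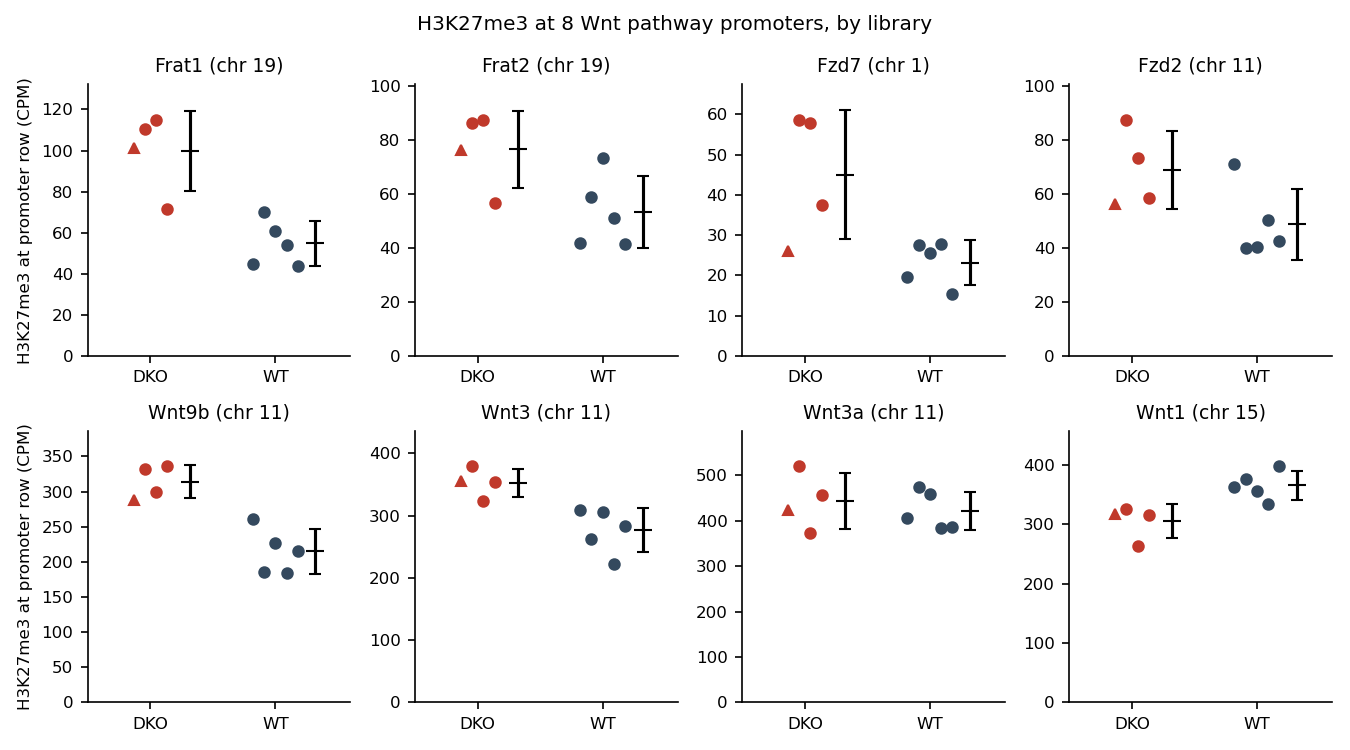
H3K27me3 at 8 member promoter rows in CPM, 1 point per library, with DKO left of WT (triangle, the clone 4 DKO library), and a black bar for the mean ± SD. All DKO points lie above all WT points for Frat1, Wnt9b and Wnt3 and below them for Wnt1, while the triangle of Fzd7 lies among the WT points.

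By role, the ligand rows held more negative than positive values, with Wnt9b as the single call. Of the 20 ligand rows tested, Wnt9b included, 14 were negative and 6 positive, with a median of -0.17. The row of Wnt1, which patterns the midbrain, had 317, 326, 263 and 315 CPM in the DKO libraries, against 363, 377, 357, 334 and 398 CPM in the WT libraries, and no DKO library reached the lowest WT library. Its log2 fold change was -0.26 (SE 0.10, edgeR adjusted p of 0.279). At Wnt11 (start 1), a ligand that guides cell movements, the values were 231, 190.1, 186 and 204 CPM in the DKO libraries, against 251, 253, 249, 239 and 249 CPM in the WT libraries, again without overlap, at -0.29 (SE 0.11, edgeR adjusted p of 0.256). Wnt5a, the main ligand of the beta-catenin-independent branch, had 77.3, 63.0, 57.8 and 57.5 CPM in the DKO libraries, against 101, 86.6, 76.9, 84.4 and 83.2 CPM in the WT libraries at start 2, where the groups overlapped in 1 pair of libraries. The log2 fold change was -0.45 (SE 0.15, edgeR adjusted p of 0.152). Wnt10b at start 5, a row with 232 bases of its own, stood at -0.60 (SE 0.21, edgeR adjusted p of 0.196). DKO lay below WT in every library at 4 member rows (Wnt1, both starts of Wnt11, and start 1 of Wnt5a), against 1.61% of all rows tested. DKO lay above WT in every library at 4 others (Frat1, Wnt9b, Wnt3 and start 2 of Axin2), against 1.74% of all rows.

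The Frizzled receptors other than Fzd7 gave no call. Over 7 rows tested, 4 values were positive and 3 negative, with a median of 0.12. Fzd2 had 56.2, 87.3, 73.1 and 58.3 CPM in the DKO libraries, against 71.1, 39.9, 40.3, 50.2 and 42.4 CPM in the WT libraries, where WT replicate 1 lay above 2 DKO libraries. Its log2 fold change was 0.47 (SE 0.16, edgeR adjusted p of 0.175). It passed without WT replicate 1, at 0.65. Fzd8 and Fzd9 stood at 0.22 and 0.12, and Fzd1, Fzd3 and Fzd4 at -0.07, -0.03 and -0.12.

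The secreted antagonists and the R-spondins gave no call in either direction. The 10 antagonist rows tested ran from -0.32 (Dkkl1, a relative of the Dkk family known from sperm) to 0.20 (start 3 of Sfrp4), with a median of -0.09. The Dkkl1 value rested on WT replicate 1, without which it was 0.20. For the 3 R-spondin rows the values were -0.05 for Rspo1, -0.02 for Rspo4 and 0.01 for Rspo3, and of these 13 rows 0 had an unadjusted p under 0.05 by edgeR and DESeq2 called 0. Of the 7 intracellular or nuclear rows 6 were positive, with a median of 0.33. Besides both Frat genes, these were the starts of Axin2 (0.18 and 0.25) and of Tcf7, a transcription factor that binds beta-catenin (0.33 and 0.52), all on chromosome 11. Lef1, its relative on chromosome 3, stood at -0.22 (SE 0.12, edgeR adjusted p of 0.551).

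**Figure D4:**
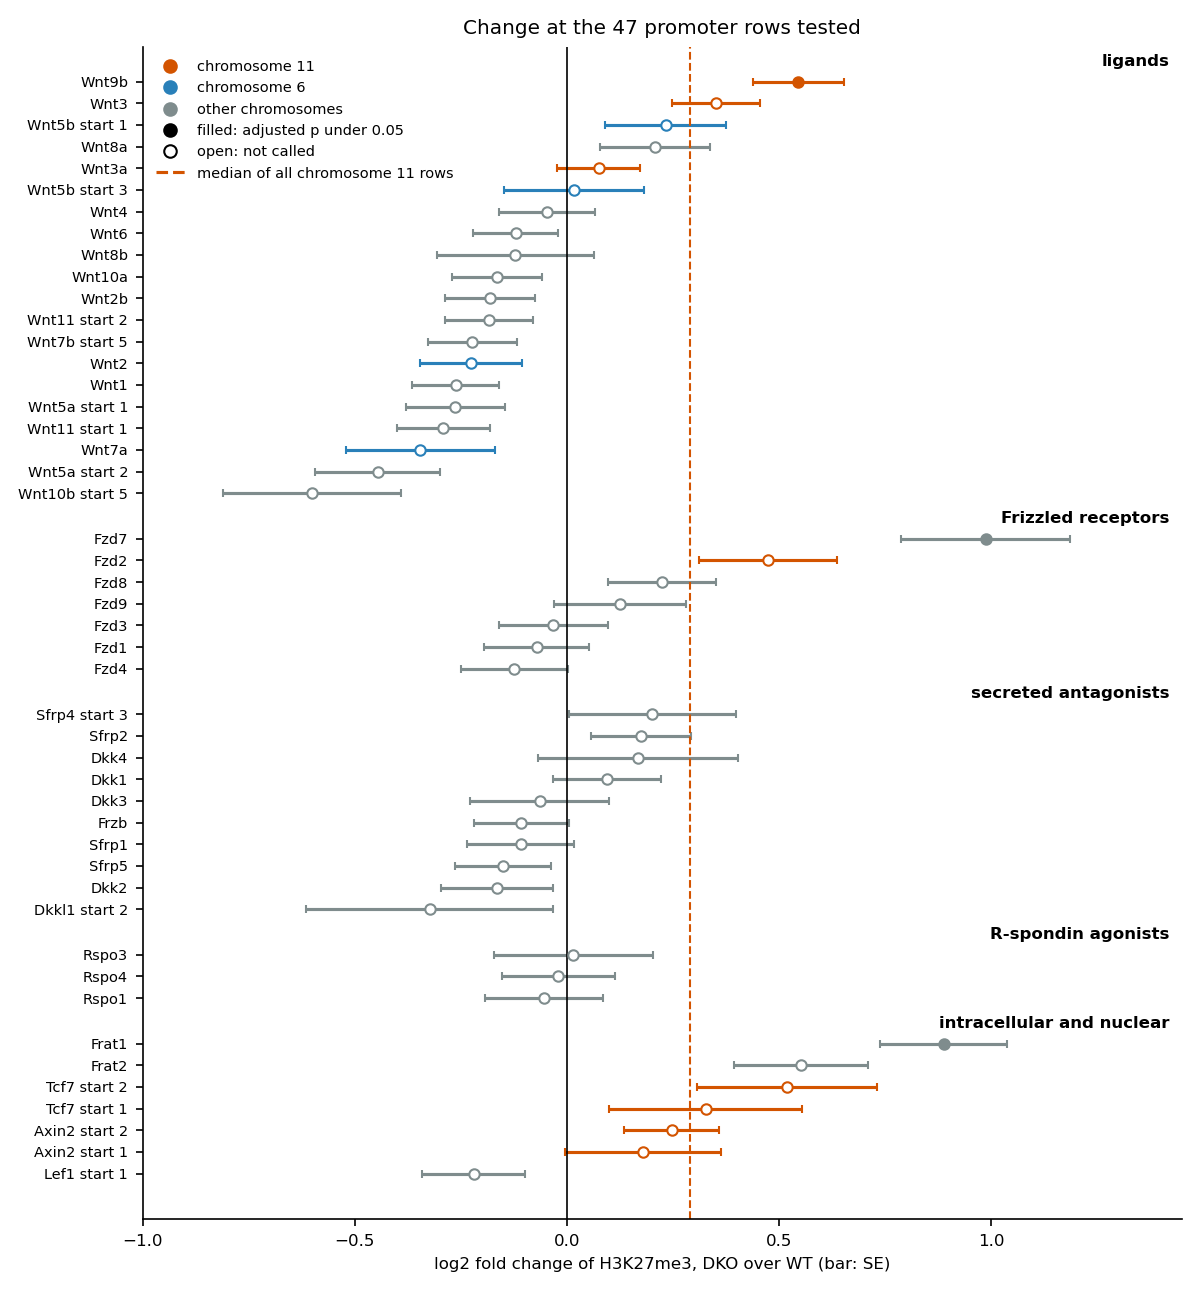
Log2 fold change of H3K27me3, DKO over WT, with its SE at each of the 47 member promoter rows tested, by role. Filled points passed the test (Frat1, Fzd7 and Wnt9b), and the dashed line is the median of all chromosome 11 rows at 0.29.

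Members on chromosome 11 stood higher in DKO together with the rest of their chromosome. Of the 2051 promoter rows tested there, 84 rose (4.1%), and the medians of the other chromosomes lay between -0.09 and 0.01. The 8 member rows tested on chromosome 11 were all positive, with a median of 0.34. Wnt3, a ligand required for gastrulation, had 356, 379, 324 and 354 CPM in the DKO libraries, against 309.7, 263, 307, 223 and 283 CPM in the WT libraries, without overlap. Its log2 fold change of 0.35 (SE 0.10, edgeR adjusted p of 0.0816) did not pass. Of 20 alternatives 4 called it, among them the fit with the library set term (0.37). Wnt3a stood at 0.08 (SE 0.10, edgeR adjusted p of 0.864), with 424, 519.6, 373 and 458 CPM in the DKO libraries, against 405, 474, 459, 385 and 385 CPM in the WT libraries, and both groups overlapped. With the chromosome 11 correction the values were 0.10 for Wnt3, -0.19 for Wnt3a, 0.21 for Fzd2 and -0.08 and -0.01 for the starts of Axin2. Total H3 stood higher there too. At the 10 member regions of chromosome 11 the total H3 log2 fold changes were all positive, from 0.04 to 0.79, and the median over all 1672 regions tested for total H3 there was 0.31. On chromosome 6, which holds the cassette and 24049 of the 57909 regions, 4 member rows were tested and 0 called by edgeR or DESeq2. They were Wnt7a, a ligand of limb and nervous system, at -0.35, Wnt2, a ligand of lung and heart, at -0.23, and 2 starts of Wnt5b at 0.23 and 0.02, and 0 of the 4 had an unadjusted p under 0.05.

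Over whole regions, which are longer than the promoter rows, 7 member regions rose and 8 fell of 66 tested. Over all 40418 regions tested 4.03% were called (2.16% rose, 1.88% fell). The median log2 fold change was -0.02 for both the members and all regions. Off chromosomes 6 and 11 it was -0.05 for the 48 member regions tested and 0.05 for all 21984 regions tested. The rises were at Frat1, Wnt9b, Wnt9a, Wnt3, Fzd2 and at both Fzd7 regions. The Fzd7 regions had been listed as called in DKO alone, so a rise there is favoured by that choice. The falls were at Wnt1, Wnt5a, Wnt7b, Wnt10a, Wnt10b, Wnt7a, Lef1 and Wnt11. The split moved with the scaling. It was 10 rises and 3 falls with scaling by library totals, 2 and 7 with the chromosome 11 correction, and 8 and 0 with a correction for the level of a region. Over all 40418 regions these settings gave 1418 rises and 460 falls, 287 and 629, and 899 and 461. It was 1 and 1 among the unmarked libraries and 5 and 1 among the marked ones, against 27 and 119 of 38419 and 407 and 285 of 47039 regions. Leaving out DKO replicate 2 gave 5 rises and 3 falls, and leaving out DKO replicate 3 gave the same numbers. Over all regions these gave 373 and 357 of 44079, and 320 and 303 of 41609.

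The Frat1 region (chr19:41830033-41836619, 6587 bp) begins 63 bp downstream of the start and had 124, 133, 132 and 102 CPM in the DKO libraries, against 67.1, 94.9, 83.7, 91.6 and 78.8 CPM in the WT libraries. The groups did not overlap. The log2 fold change was 0.56 (SE 0.10, edgeR adjusted p of 6.16e-06), and it was called in all 21 alternatives run, from 0.47 to 0.65. The Frat2 region on the downstream side stood at 0.35 (SE 0.12, edgeR adjusted p of 0.0754), without a call. The Fzd7 regions stood at 1.02 downstream of the start, with 15.8, 27.3, 24.4 and 14.2 CPM in the DKO libraries, against 9.27, 13.6, 10.5, 11.3 and 6.76 CPM in the WT libraries, and at 0.66 upstream. At the first every DKO library lay above every WT library, in a region listed for its call in DKO alone. For the second, the call ended when any of WT replicates 2, 4 and 5 or DKO replicates 2, 3 and 4 was left out (0.58 to 0.69).

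On chromosome 11, Wnt9b, Wnt9a, Wnt3 and the downstream Fzd2 region rose by 0.45, 0.32, 0.31 and 0.37, against a median of 0.41 over all 2720 regions tested on that chromosome, of which 19.6% rose. With the chromosome 11 correction these became 0.21, 0.07, 0.07 and 0.13, and 0 of the 4 passed. Wnt9a, a ligand of joint formation whose promoter rows shared nearly all their bases, had 231, 305, 256 and 242 CPM in the DKO libraries, against 207, 218, 206, 208 and 196 CPM in the WT libraries. The groups did not overlap, and the call ended without DKO replicate 2 (0.24). That of Fzd2 ended without DKO replicate 3 (0.32). Wnt3a, which lies 16176 bp from Wnt9a and is transcribed away from it, stood at -0.00 in a region with 355, 423, 324 and 397 CPM in the DKO libraries, against 373, 401, 387, 367 and 349.7 CPM in the WT libraries, where the WT range lay inside the DKO range. With the chromosome 11 correction this region was called as a fall, at -0.25.

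All 8 falls were in shared regions of 10 kb or more. There were 12 member regions of that length, of which 8 fell and 0 rose by edgeR, with a median of -0.23. Among all 534 shared regions of that length, 40.8% fell and 2.62% rose, with a median of -0.18. Wnt1 lies in the longest (chr15:98786528-98810349, 23822 bp), which had 888, 854, 786 and 856 CPM in the DKO libraries, against 1038, 1081, 1031, 1048 and 1018 CPM in the WT libraries. No DKO library reached the lowest WT library. The means were 846 ± 42.6 CPM in DKO (SD, n = 4) and 1043 ± 23.7 CPM in WT (SD, n = 5), a log2 fold change of -0.30 (SE 0.05, edgeR adjusted p of 1.62e-05). Its neighbour Wnt10b, a ligand of bone and breast with its start 11707 bp away on the other strand, fell by 0.22 on the log2 scale in a region of its own. Wnt10a on chromosome 1, a ligand of teeth and skin, fell by 0.22, while the region of its neighbour Wnt6, at 19624 bp, stood at -0.15 without a call. The Wnt5a region had 454, 407, 390.0 and 440.4 CPM in the DKO libraries, against 532, 539, 498, 508 and 499 CPM in the WT libraries, without overlap, and fell by 0.29. Wnt7b, Wnt7a, Lef1 and Wnt11 fell by 0.28, 0.23, 0.23 and 0.20. Wnt7a, like Wnt5b, lies on chromosome 6, where 314 of all 15714 regions tested fell, 16 rose and the median was -0.18. Apart from Wnt6, the long regions without a call were those of Wnt8a at 0.08, Rspo1 at 0.04 and the Wnt5b region over its upstream starts at -0.23. Of the 8 falls, those of Wnt1 and Wnt5a kept their call with each single library left out. The others lost it in at least 1 such case. These were Wnt7b without DKO replicate 3 (-0.21), Wnt10a without any of DKO replicates 2 and 3 and WT replicate 1 (-0.22 to -0.17), and Wnt10b without any of DKO replicates 2, 3 and 4 and WT replicate 3 (-0.22 to -0.18). For Lef1 it was any of WT replicates 2 and 4 and DKO replicates 1, 2 and 4 (-0.21 to -0.16). For Wnt7a it was any of WT replicates 2, 3, 4 and 5 and DKO replicates 2, 3 and 4 (-0.25 to -0.16), and for Wnt11 any library other than DKO replicate 1 (-0.22 to -0.18). With the level correction 0 of the 8 passed, with Wnt1 at -0.08 and Wnt5a at -0.11. Over the 66 regions, every DKO library lay above every WT library at 6, against 3.36% of all regions tested, and below at 10, against 3.4%.

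**Figure D5:**
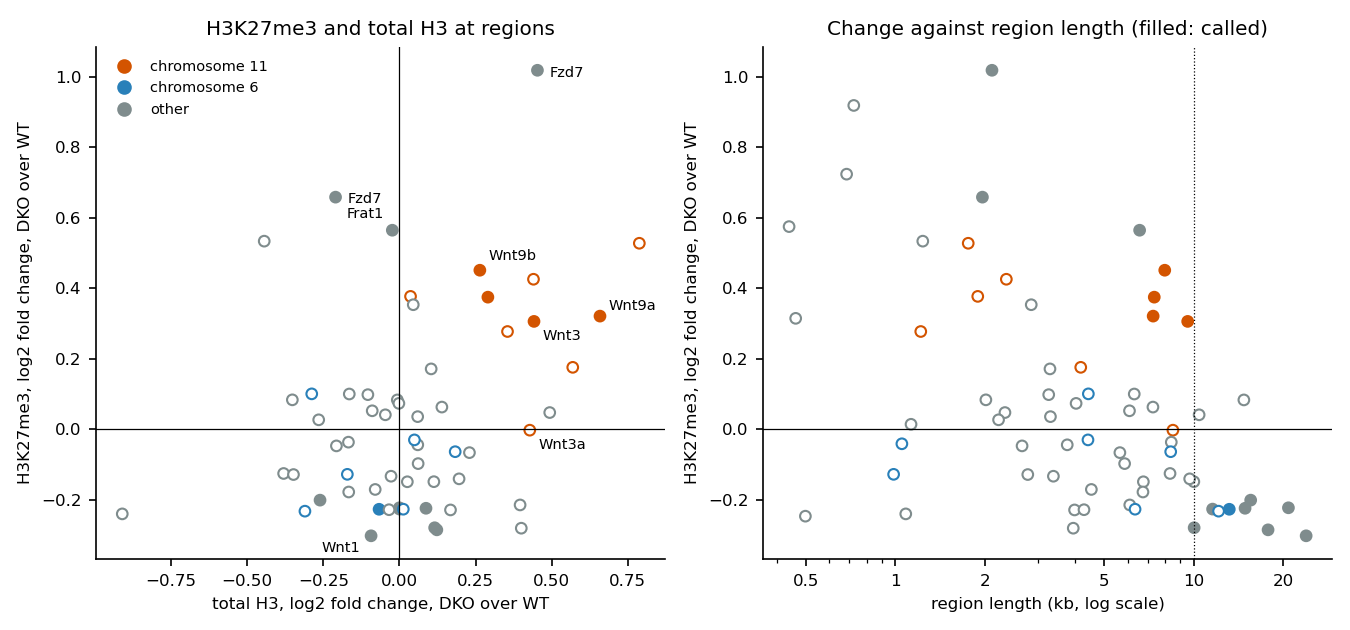
H3K27me3 log2 fold change (DKO over WT) at member regions against the total H3 log2 fold change (left) and against region length in kb on a log scale (right), with chromosome 11 in orange, chromosome 6 in blue and called regions filled. The 8 falls lie right of the dotted 10 kb line, and the chromosome 11 regions lie at positive total H3 values.

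Total H3 gave no call at the members. Of 59 member regions tested, edgeR called 0, against 0.0211% of the 18938 regions it tested. DESeq2 called 0 of all 57908 regions, so its 0 at the members says nothing particular about them. At an unadjusted p under 0.05 there were 7 member regions, against 6.17% of all regions tested. Of the 7, 5 were among the 10 on chromosome 11, where the share over all regions was 17.5%. Wnt9a had 239 and 183 CPM in DKO, against 125 and 136 CPM in WT, a log2 fold change of 0.66. At the Frat1 region total H3 was 121 and 107 CPM in DKO, against 106 and 122 CPM in WT, with overlapping groups and a log2 fold change of -0.02. At the Wnt1 region it was 423 and 447 CPM in DKO, against 419.7 and 509 CPM in WT, a log2 fold change of -0.09, again with overlap. At the downstream Fzd7 region it was 55.2 and 43.1 CPM in DKO, against 38.9 and 31.6 CPM in WT, a log2 fold change of 0.45 without a call. The H3K27me3 change beyond that of total H3, tested by edgeR as an interaction over all 13 libraries, was called at 0 of 67 member regions, with 8 at an unadjusted p under 0.05. Over all 54290 regions tested 0.00184% were called and 6.74% had an unadjusted p under 0.05. The Frat1 value was 0.56 with SE 0.24 (edgeR adjusted p of 0.662), and the median SE over the member regions was 0.29. For Wnt1 it was -0.23 with SE 0.13. The median over the 10 regions of chromosome 11 was -0.13.

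Other genes of the pathway were read from 7 lists of 60 genes, of which 53 promoter rows were tested. Kremen1, a receptor through which Dkk proteins act, rose, and Sp5, a target gene and repressor, fell. The other 51 rows did not pass, and the median log2 fold change was 0.09. Over all 32647 rows tested, 0.438% rose and 0.19% fell. Kremen1 averaged 83.5 ± 13.9 CPM in DKO (SD, n = 4) and 53.0 ± 8.30 CPM in WT (SD, n = 5), a log2 fold change of 0.64 (edgeR adjusted p of 0.0151). It lies on chromosome 11, where 4.1% of the rows tested rose. Its value with the chromosome 11 correction was not taken. Sp5 averaged 293 ± 37.3 CPM in DKO (SD, n = 4) and 385 ± 19.6 CPM in WT (SD, n = 5), a log2 fold change of -0.40 (edgeR adjusted p of 0.0302). By list, 1 of 14 rows of co-receptors and receptor turnover rose (median 0.32) and 1 of 6 rows of target genes fell (median -0.08). The medians of the remaining lists were 0.28 for 6 rows of other inhibitors, 0.09 for 7 rows of cytoplasmic proteins, -0.03 for 10 rows of nuclear proteins and -0.08 for 10 rows of planar polarity genes. Znrf3 and Rnf43 of the co-receptor list, and Tmem88 and Sost of the other inhibitors, also lie on chromosome 11. Promoter rows of that chromosome had a median of 0.29, and medians of the lists without them were not taken. The 6 rows of the Wnt secretion genes (Porcn, Wls, Notum) had too few counts to test. Of these, 0 had at least 1500 bases of their own, so their level of the mark could not be read. The starts of 2 of the 3 genes lay in shared regions.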

How the data were processed

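Reads of H3K27me3 and total H3 ChIP-seq of DKO and WT mouse ESCs had been processed by the authors with Bowtie2, MACS2, bedtools, Subread and featureCounts on mm10, per the submitters' processing notes. The deposited values are raw counts from featureCounts 2.0.3, unstranded and with reads over more than 1 row not counted, per the file headers. The tag b6 in the column names is not explained there. One deposited table covers promoters, and separate tables cover the regions, which the authors had listed as shared, DKO-specific or WT-specific. The region tables of DKO and WT held identical regions and were joined. Of the promoters, 37 mitochondrial rows and the Gm21748 row, which spans nearly all of chromosome Y, were left out.

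Each comparison set DKO against WT, as grouped by the labels, over the whole table with edgeR 4.0.16 in R 4.3.3: filterByExpr (minimum count 10, minimum total 15), TMM scaling, quasi-likelihood F test and Benjamini-Hochberg adjustment at 0.05, with SE as the absolute log2 fold change over the root of F. The fits were tested on simulated data. Tables and plots used Python 3.11.15, numpy 2.4.6, pandas 2.3.3 and matplotlib 3.10.9. Members and gene lists were chosen with earlier results of these data known. Genes given by name are those called in any test, the 3 highest and the lowest row of each role, the 10 rows of smallest p and members on chromosomes 6 and 11.

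Alternatives were DESeq2 1.42.0, library totals, no count filter, a term for the Old and New library sets, a replicate block, corrections for chromosome 11 and for level, subsets of libraries, stricter overlap and leaving out each library. Deviations of DKO and WT libraries from their group means correlated between -0.15 and 0.136, and no label ties DKO and WT libraries of 1 number to each other, so no pairing was used.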

Additional observations from a re-analysis of the deposited data

Results flagged for a closer look

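Of 124 groups of 4 or 5 libraries checked, 4 held a library that stood apart from the others of its group, and chance alone flags about 1 in 20. At start 2 of Dkkl1, WT replicate 1 had 32.1 CPM of H3K27me3, against 7.71 to 12.4 CPM in the other WT libraries. At the Fzd4 promoter, DKO replicate 1, from clone 4, had 141 CPM, against 112 to 113 CPM in the other DKO libraries, which came from clone 13. At the Wnt11 region, DKO replicate 1 had 399 CPM, against 371 to 374 CPM in the other DKO libraries. At start 1 of Wnt11, WT replicate 4 had 239 CPM, against 249 to 253 CPM in the other WT libraries, and it still lay above every DKO library.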

How the results depend on the processing

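The number of member promoter rows called, 3 in the main test, was 5 with library totals or a term for the library sets, 1 among the unmarked libraries, and 2 to 4 with single libraries left out. With a replicate block it was again 3. Over all 32647 rows tested there were 143 rises and 62 falls in the main test. Library totals gave 227 and 71, the library set term 255 and 134, and the replicate block 73 and 36. The unmarked libraries gave 11 and 11 of 29959 rows. The number of member regions called, 15 in the main test, was 9 with the chromosome 11 correction, 8 with the level correction, 2 among the unmarked and 6 among the marked libraries, and 8 to 16 with single libraries left out. With a replicate block it was 15, against 425 rises and 538 falls over all regions. A comparison of clone 13 with the WT libraries that share a name stem, chosen after seeing the data, called 10. Over all 43044 regions tested in it there were 512 rises and 345 falls. Total H3 and the H3K27me3 change beyond it gave 0 member calls by edgeR in every alternative run. Calls were rare over all regions too, at most 2 rises and 3 falls for total H3 and 2 falls for the change beyond it. Of the 18 promoters and regions called, 0 of 375 alternatives gave the opposite sign and 100 lost the call. The sign of a log2 fold change turned only at values that had not been called, and the cause was not tested. With the chromosome 11 correction these were -0.19 for Wnt3a, -0.08 and -0.01 for the starts of Axin2 and -0.07 for the Axin2 region, and the Wnt3a region was called at -0.25. With the level correction they were 0.02 for Wnt6, -0.03 for Wnt5b (start 3) and 0.15 for the Wnt3a region, which stood at -0.00 in the main test. With library totals they were 0.00 for Rspo4 and 0.06 for the Wnt3a region, which gave 0.01 with the library set term. With the WT libraries of the shared name stem alone they were 0.03 for Fzd1, 0.02 for Rspo4 and 0.04 for the Wnt3a region, and with clone 13 against these 0.02 for Fzd1 and 0.08 for the Wnt3a region. Among the unmarked libraries they were 0.02 for Fzd1, 0.11 for Fzd3, 0.12 for Rspo4, -0.02 for Tcf7 (start 1), 0.02 for Wnt6 and 0.00 for the Wnt3a region, and among the marked ones 0.28 for Dkkl1 (start 2), 0.03 for Sfrp5, -0.06 for Wnt5b (start 3) and 0.01 for the Wnt3a region. With single libraries left out, Dkkl1 (start 2) ran from -0.53 to 0.20, Fzd3 from -0.08 to 0.02, Rspo1 from -0.13 to 0.03, Rspo4 from -0.10 to 0.09, Wnt3a from -0.01 to 0.15 at its promoter and from -0.06 to 0.07 over its region, and Wnt5b (start 3) from -0.06 to 0.12. Total H3 then ran from -0.21 to 0.08 at the Wnt1 region, from -0.11 to 0.11 at the Frat1 region and from -0.22 to 0.21 at the upstream Axin2 region, and the median over member rows from -0.08 to 0.02.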
